A study of Mus musculus with 2 samples.

Results

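Haemoglobin-rich barcodes, named here as the erythroid cells of mouse leptomeninges preparations, were taken from 2 droplet single-cell RNA libraries, R1 and R2. A barcode was a member when it had 400 genes or more, no more than 10% mitochondrial UMIs (unique molecular identifiers, each marking a captured transcript), and when the adult globin genes Hba-a1, Hba-a2, Hbb-bs and Hbb-bt together gave at least 20% of its UMIs. There were 120 members among 6026 barcodes that passed the gene and mitochondrial limits, out of 14019 deposited. R1 held 74 members among 2988 kept barcodes, a share of 2.48% (exact Clopper-Pearson 95% interval 1.95 to 3.10%). R2 held 46 among 3038, a share of 1.51% (1.11 to 2.02%). The mean share was 1.995% ± 0.681 (SD, n = 2 libraries). Intervals cover counting error only.

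The tissue was the thin inner covering of the brain, peeled off the hemispheres of Pdgfra-H2BGFP mice of both sexes at 3 months of age, in which a nuclear green fluorescent protein reports Pdgfra. Both libraries belonged to 1 group, and the labels do not say whether they came from separate animals, so p-values below measure only how differences varied between these libraries. R1 held 14586462 UMIs and R2 12359040. The libraries shared 93 barcode sequences, of which 0 were members. No doublet caller was run, so members may include droplets with more than 1 cell.

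Red cells are built in bone marrow and spleen from erythroblasts, which divide, fill with haemoglobin, and then expel the nucleus to become reticulocytes. A reticulocyte has no new transcription, keeps globin and other stored mRNAs for a time, and clears its mitochondria and ribosomes before it becomes a mature red cell. Circulating cells enter a meningeal suspension with the vessels of the tissue.

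The globin genes lie in the alpha cluster on chromosome 11 and the beta cluster on chromosome 7. The stretches of 250 bases before the RefSeq start of 5 genes are shown, since the counts below turn on 3 of the globin genes, on Alas2 of heme synthesis and on Bpgm of late maturation. All are RefSeq sequences of build GRCm38.p6, given along the gene's strand. Capitals mark matches, on either strand, to 4 short motifs: GATAA (bound by GATA factors), CCNCNCCC (a CACCC-type box, bound by Klf1 and related factors), CCAAT and TATAA. The windows are chr11:32283422-32283671 for Hba-a1, chr7:103827929-103828178 for Hbb-bs (minus strand), chr7:103813924-103814173 for Hbb-bt (minus strand), chrX:150547167-150547416 for Alas2 and chr6:34476106-34476355 for Bpgm.
Hba-a1: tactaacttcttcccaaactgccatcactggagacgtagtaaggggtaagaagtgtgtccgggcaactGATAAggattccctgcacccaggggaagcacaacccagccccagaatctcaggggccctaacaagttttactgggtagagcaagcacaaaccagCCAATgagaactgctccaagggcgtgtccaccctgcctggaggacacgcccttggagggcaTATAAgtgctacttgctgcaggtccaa
Hbb-bs: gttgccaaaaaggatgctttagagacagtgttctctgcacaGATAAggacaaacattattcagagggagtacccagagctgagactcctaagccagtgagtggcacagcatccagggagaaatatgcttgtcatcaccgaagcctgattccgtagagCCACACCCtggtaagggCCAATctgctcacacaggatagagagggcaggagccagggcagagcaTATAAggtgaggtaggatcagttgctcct
Hbb-bt: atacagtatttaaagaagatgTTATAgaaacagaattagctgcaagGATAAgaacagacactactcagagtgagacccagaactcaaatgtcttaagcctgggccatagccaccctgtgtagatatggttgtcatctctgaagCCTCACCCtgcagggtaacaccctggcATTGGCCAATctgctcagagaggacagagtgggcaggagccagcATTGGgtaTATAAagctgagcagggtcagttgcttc
Alas2: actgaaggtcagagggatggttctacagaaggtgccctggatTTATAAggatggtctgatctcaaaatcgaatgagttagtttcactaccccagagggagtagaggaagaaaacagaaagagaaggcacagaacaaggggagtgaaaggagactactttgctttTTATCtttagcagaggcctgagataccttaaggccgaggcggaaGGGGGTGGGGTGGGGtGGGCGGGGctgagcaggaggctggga
Bpgm: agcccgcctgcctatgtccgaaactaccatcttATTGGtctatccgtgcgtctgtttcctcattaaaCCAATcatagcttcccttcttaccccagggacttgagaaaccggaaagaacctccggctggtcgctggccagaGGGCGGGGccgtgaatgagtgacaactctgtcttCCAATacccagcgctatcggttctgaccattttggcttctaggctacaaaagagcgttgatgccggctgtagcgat
GATAA occurred 1 time in each window shown other than that of Bpgm, which had 0. The Hbb-bs window held CACCC-type, CCAAT and TATAA matches that began 93, 76 and 29 bases before the start, and the Hbb-bt window held such matches at 107, 75 and 28 bases. Among all 32851 RefSeq windows of the same length, 22.6% held GATAA on either strand, 45.9% CCNCNCCC, 33.8% CCAAT and 22.8% TATAA. In the windows of the 5 genes shown, matches of different motifs did not overlap. A match is a description of letters and not of binding.

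The paralogs of each cluster were close in sequence. Hba-a1 and Hba-a2 shared 428 of 429 coding bases, and their 3′ untranslated regions (74 and 90 bases in GENCODE) matched over all 74 bases of the shorter. Hbb-bs and Hbb-bt shared 443 of 444 coding bases, but their 3′ untranslated regions matched at 69.4% of aligned positions and the windows before their starts at 69.3%. Which end of the transcript was read is not given in the sources used here, and the split of UMIs between near-identical paralogs, above all Hba-a1 and Hba-a2, is uncertain.

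The haemoglobin share of a member's UMIs chose it and is given as a description. It ran from 20.1 to 93.3% in R1 (median 86.0%) and from 23.6 to 94.1% in R2 (median 83.5%). The rest had medians of 0.217% in R1 and 0.296% in R2. Nearest to the limit, the members with the lowest shares had 20.1, 20.8 and 23.0% in R1 and 23.6, 26.7 and 31.7% in R2. The kept barcodes just outside had 19.7, 15.96 and 15.8% in R1 and 17.4, 16.5 and 14.2% in R2. At the gene limit, 16 haemoglobin-rich barcodes of R1 and 14 of R2 had 400 to 449 genes, and 22 and 16 had 350 to 399.

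Members carried many UMIs over few genes. In R1 they had a median of 9430.5 UMIs and 554.5 genes, against 1599 UMIs and 920 genes in the rest. In R2 the medians were 8908 UMIs and 514 genes in members and 1235 UMIs and 723.5 genes in the rest. Outside the 4 globins, members held a median of 1062.5 UMIs in R1 and 1101 in R2. With every barcode thinned to 500 of these other UMIs, members had a median of 314 genes in R1 and 313.5 in R2, against 367 and 363 in the rest, and no barcode was too shallow to be used. Mitochondrial UMIs made up a median of 1.26% in R1 members and 0.953% in R2 members, against 5.65% and 5.58% in the rest, with all UMIs, globins included, in the denominator. Of pooled non-globin UMIs the order was reversed. Mitochondrial UMIs made up 7.85% in R1 members and 7.06% in R2 members, against 4.71% and 4.41% in the rest. The mitochondrial limit was set on all UMIs, so on the non-globin scale it bound the rest more tightly than members. It was exceeded by 3631 of 7276 deposited barcodes in R1 and 2905 of 6743 in R2. The reversed order therefore cannot show whether the cells themselves differed.

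Among kept barcodes, members held 96.7% of the globin UMIs in R1 and 94.8% in R2. Of the globin UMIs of all deposited barcodes they held 506254 of 2666127 in R1 and 308071 of 2716264 in R2, and haemoglobin-rich barcodes under the gene limit held 2121055 and 2374257. A globin UMI was nonetheless present in 95.9% of the rest in R1 and 96.1% in R2, at a median of 4 UMIs per barcode. Median levels were close across barcodes with markers of other cell types, in sets that were capped by haemoglobin share. Among those under 1% haemoglobin, the median was 4 UMIs in fibroblast-marked and in macrophage- or microglia-marked barcodes of both libraries, and 3 in endothelial-marked ones. A globin UMI was present in fewer of the endothelial-marked ones, 78.6% in R1 and 72.5% in R2. It was present in 97.4% and 97.7% of fibroblast-marked and 96.8% and 97.2% of macrophage- or microglia-marked ones.

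Globin make-up was alike in the libraries. Members of R1 held 97021 Hba-a1, 76613 Hba-a2, 274791 Hbb-bs and 57829 Hbb-bt UMIs. Members of R2 held 54550, 48142, 169188 and 36191. The alpha genes gave 34.3% of globin UMIs in R1 members and 33.3% in R2 members, against 34.9% and 33.6% in the rest. Rest barcodes under 1% haemoglobin had 30.7% and 30.2%, and the 93 and 184 of 1 to 20% had 43.8% and 41.6%. The ratio of Hbb-bs to Hbb-bt UMIs was 4.75 in R1 members and 4.68 in R2 members, against 6.31 and 7.45 in the rest and 7.47 and 6.92 in the rest under 1% haemoglobin. Haemoglobin-rich barcodes under the 400-gene limit had 5.51 in R1 and 5.65 in R2. These ratios are descriptions with no test.

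Within members the share of Hbb-bt among beta-globin UMIs spread over a low and a high range. In R1, 24 of 74 members were under 12% (median 4.33%), 46 were at 14% or more (median 19.99%) and 4 lay between. In R2, 20 of 46 were under 12% (median 3.76%), 26 were at 14% or more (median 19.7%) and 0 lay between. The limits of 12 and 14% were set after the values were seen, and the emptiest bins of R1 lay lower, with 1 member at 8 to 10% and 2 at 10 to 12%. Haemoglobin shares differed between the ranges, with medians of 88.4% (R1) and 89.99% (R2) in the high range and 49.9% and 72.9% in the low range. The high range had more UMIs per barcode, with medians of 10713 in R1 and 11404.5 in R2, against 5151.5 and 4811.5 in the low range. It also had more UMIs of Alas2, with medians of 14 in R1 and 19 in R2, against 3.5 and 2. Alpha UMIs made up 33.7% (R1) and 32.1% (R2) of globin UMIs in the high range and 36.7% and 37.2% in the low range. Below the gene limit the share covered the same span without a clear gap between 12 and 14%: 201 of 379 haemoglobin-rich barcodes of R1 and 197 of 400 of R2 were under 12%, 155 and 169 were at 14% or more, and 23 and 34 lay between. Depth, haemoglobin share and Alas2 moved together with the Hbb-bt share, and their part in it was not tested.

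**Figure D1:**
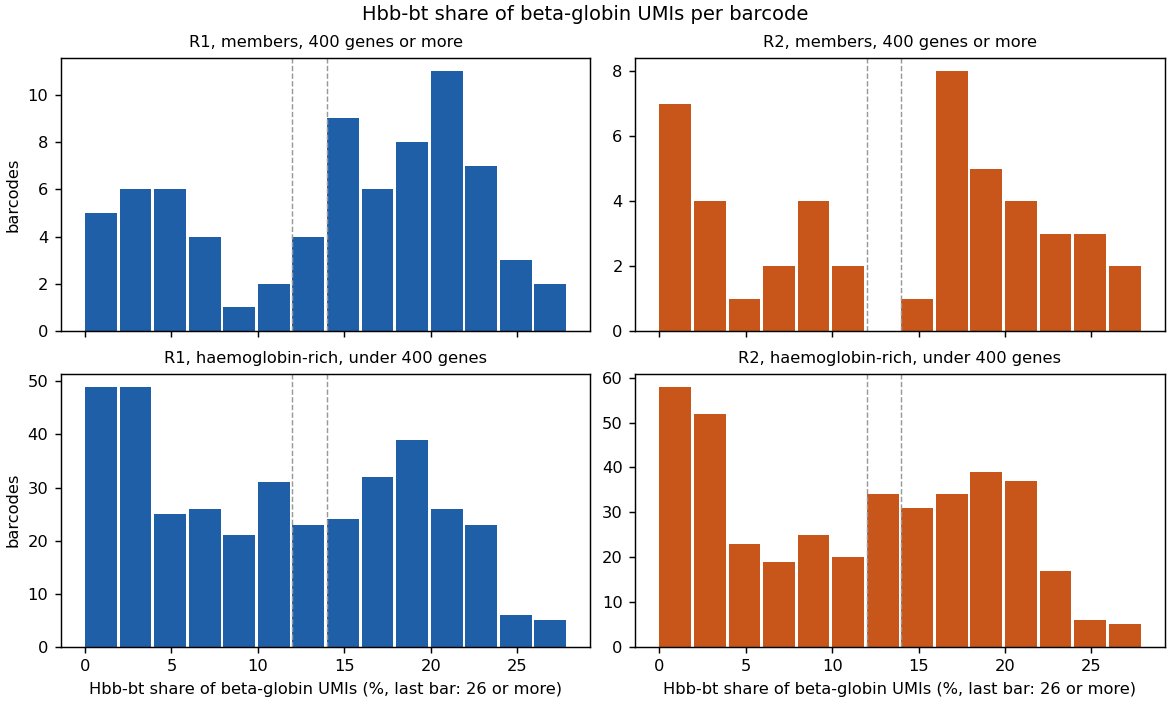
Number of barcodes (vertical axis) by the Hbb-bt share of beta-globin UMIs in bins of 2 percentage points (horizontal axis, the last bar collecting 26% or more), for members (top) and haemoglobin-rich barcodes under 400 genes (bottom) in R1 (left) and R2 (right). Dashed lines mark 12 and 14%; 4 members of R1 and 0 of R2 lie between them.

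Other globin genes were sparse. Hbq1a, a theta-like gene of the alpha cluster, had 10 UMIs in R1 members and 2 in R2 members and 0 in the rest of both, at least 271-fold higher in members against a floor of 3 UMIs over the group. Its neighbour Hbq1b had 8 and 4 UMIs in members, against 1 and 0 in the rest. The embryonic gene Hbb-y had 0 UMIs in members of both libraries, against 4 in the rest of R1 and 1 in the rest of R2. Neuroglobin (Ngb) had 0 and 1 UMIs in members and 22 and 4 in the rest, and myoglobin (Mb) 0 and 0 in members and 0 and 1 in the rest. Cytoglobin (Cygb), found in fibroblasts, had 2 and 0 UMIs in members and 70 and 61 in the rest, with a log2 fold change of 0.15 ± 1.60 (SE) and edgeR adjusted p of 0.9999.

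Erythroid markers that the choice did not use are given as a description, since their list was chosen with earlier results of these data known. Such genes go with haemoglobin in any red cell and are not a separate identification of the members. A UMI of Alas2, the erythroid enzyme of the opening step of heme synthesis, was present in 67 of 74 R1 members (90.5%) and 42 of 46 R2 members (91.3%), against 0.446% and 0.668% of the rest. Thinned to 500 UMIs, Alas2 was seen in 81.1% of R1 members (exact 95% interval 70.3 to 89.3%) and 80.4% of R2 members (66.1 to 90.6%). In thinned endothelial-marked barcodes it was seen in 0 of 219 and 0 of 181, and in thinned macrophage- or microglia-marked ones in 0 of 438 and 0 of 327, with exact intervals that reached at most 2.02%. In thinned fibroblast-marked barcodes it was seen in 3 of 1863 in R1 and 8 of 2074 in R2. All 15 erythroid markers other than the 4 globins had UMIs in members, and together they gave 3.00% of non-globin UMIs in R1 members and 4.25% in R2 members, against 0.0366% and 0.0374% in the rest.

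Erythroid markers were unevenly spread over members and followed the haemoglobin share. In R1 they gave 0.265% of other UMIs in the 13 members with 20 to 50% haemoglobin, 2.11% in the 17 with 50 to 80% and 6.31% in the 44 with 80% or more. In R2 the values were 0.403% in 7, 2.79% in 12 and 6.53% in 27 members. Kept barcodes under 1% haemoglobin had 0.0350% and 0.0364%. Alas2 had a UMI in 53.8, 94.1 and 100% of the R1 bands and in 57.1, 91.7 and 100% of the R2 bands. The lowest band therefore carried globin RNA with few other erythroid transcripts, and it held 20 of 120 members. In that band fibroblast markers gave 1.41% in R1 and 5.84% in R2, above the erythroid ones. They were also above the erythroid ones in the higher R2 bands, at 4.58 and 7.26%, but below them in those of R1, at 1.96 and 4.37%. In the lowest band macrophage or microglia markers gave 1.48% in R1 and 0.0327% in R2. In R2, 1 member of the band had 0 UMIs of the 15 erythroid markers, so the erythroid name is least sure for this band. Malat1, a nuclear long noncoding RNA, ran the other way, at 2.27, 2.19 and 0.500% of non-globin UMIs in R1 and 6.80, 3.72 and 0.219% in R2. Of all members, 17 of 74 in R1 and 13 of 46 in R2 had 0 Malat1 UMIs, against 540 of 2914 and 771 of 2992 in the rest. Thinned to 500 non-globin UMIs, the median Malat1 share was 0.2% in members of both libraries, against 1.4% (R1) and 0.2% (R2) in the rest.

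**Figure D2:**
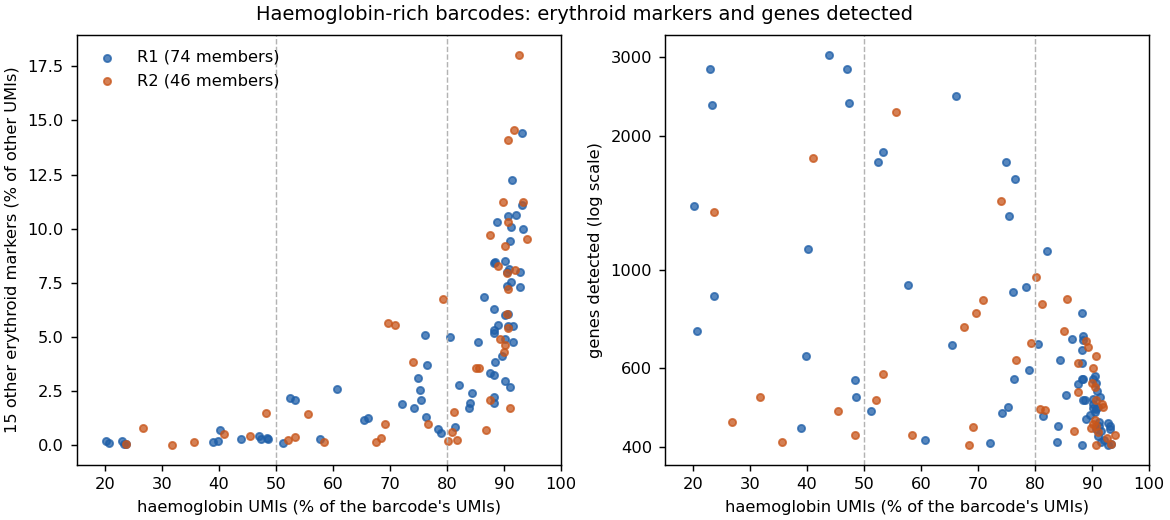
Each point is a member of R1 or R2. The horizontal axis is the haemoglobin share of its UMIs (dashed lines at 50 and 80%), and the vertical axes are the share of 15 other erythroid markers in its non-globin UMIs (left) and its number of genes (right, log scale). Marker shares reach 14.4% in R1 and 18.03% in R2 in the highest band and at most 0.706% and 1.495% in the lowest.

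RNA of other cell types was present in members, and its pooled shares differed by band. UMIs of the 10 fibroblast markers numbered 10 or more in 60 of 74 R1 members and 43 of 46 R2 members, nearly all of them from Ptgds, prostaglandin D synthase, which had a UMI in every member and in 98.1% and 98.7% of the rest. Ptgds stood at 24854 and 57383 CPM (counts per 1000000 non-globin UMIs) in members, against 31780 and 56078 CPM in the rest, so the members' level lay near that of the rest within each library. Macrophage or microglia markers numbered 10 or more in 9 members of R1 and 5 of R2, and gave 1.48, 1.02 and 0.149% of non-globin UMIs from the lowest to the highest band of R1. In R2 they gave 0.0327, 0.125 and 0.371%. Single members carried much of the pooled R1 values: 1 held 352 of the 645 such UMIs of the lowest band, and 1 held 266 of the 387 of the middle band. The median share per member was 0, 0.024 and 0% in the R1 bands and 0, 0.014 and 0.087% in the R2 bands. Endothelial markers reached 10 UMIs in 2 members of R1 and 0 of R2, and neutrophil markers in 0 of either. Of 8 neutrophil markers, Camp, Ly6g and Ltf were at 0 in members, and of 9 platelet markers 6 were at 0. The part of these other transcripts in the results was not tested.

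**Figure D3:**
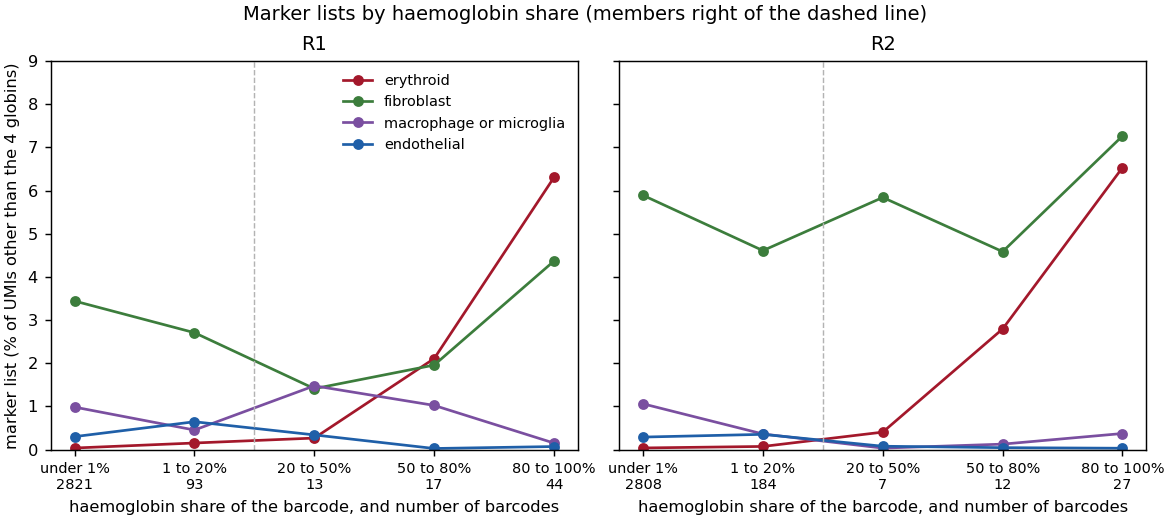
Share of non-globin UMIs (vertical axis) taken by 4 marker lists in barcodes grouped by haemoglobin share (horizontal axis, low to high, with the number of barcodes), in R1 (left) and R2 (right). Points are pooled shares of a group, which single barcodes can carry, and members stand right of the dashed line. The erythroid list reaches 6.31% in R1 and 6.53% in R2 at 80% or more, and fibroblast markers 4.37% and 7.26%.

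Non-globin UMIs were then summed per library over members and over the rest, and edgeR's quasi-likelihood test was run with library as a block and Benjamini-Hochberg adjustment over 12740 genes. It called 245 genes higher in members (1.92% of those tested) and 65 lower (0.51%) at an adjusted p under 0.05. At an unadjusted p under 0.05 there were 423 and 493. DESeq2 called 174 and 4, and edgeR without the library block 215 and 19, so the lower calls were the less stable. The median log2 fold change of all genes tested was -0.28. The 4 globins were left out of counts and totals, but red-cell genes go with haemoglobin in any red cell, so the calls describe these barcodes and are not a separate identification of them. Of the 245 higher genes, 213 (86.9%) were also higher against each of 3 marker-defined sets of fibroblast, endothelial, and macrophage or microglia barcodes. Of the 65 lower genes 1 was also lower against all 3. Against the fibroblast set, 412 genes were higher (3.64% of 11306) and 272 lower (2.41%), together 6.05%. Against the endothelial set 10.5% were higher and 8.38% lower (18.9% together), and against the macrophage or microglia set 10.4% and 8.92% (19.3% together). These sets are rough: neutrophil markers gave 1.11% and 0.636% of non-globin UMIs in the fibroblast set.

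A few members decided part of these calls, and the list counts below are given with and without them. In 5 members (3 in R1, 2 in R2), 10 or more UMIs came from the list of 6 genes of dividing cells, and these held 64.4% of that list's UMIs in R1 members and 87.3% in R2 members. Without them, an alternative chosen after seeing the data, 167 genes were higher and 63 lower, and 159 genes were higher in both fits. In the heme, transcription factor, late-maturation and redox lists below, 0 genes were lower by edgeR, by DESeq2 or at an unadjusted edgeR p under 0.05.

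Of 26 heme and iron genes tested, 14 were higher, 0 lower and 12 not called, with a median log2 fold change of 1.88. Without the 5 members 8 of the 14 stayed higher, and Alad, Uros, Cpox, Tfrc, Abcb10 and Eif2ak1 did not pass. Alas2 had 841 UMIs (6581 CPM) in R1 members and 594 (9492 CPM) in R2 members, against 17 (2.43 CPM) and 23 (3.91 CPM) in the rest. Members were far above the rest in both libraries, with a log2 fold change of 11.40 ± 0.35 (SE, n = 2 libraries, edgeR adjusted p = 8.74e-225). Fech, which inserts iron into the heme ring, had 986 and 1486 CPM in members and 35.6 and 34.5 CPM in the rest (log2 fold change 5.20 ± 0.32). Slc25a37, the mitochondrial iron importer mitoferrin, had 1017 and 1470 CPM in members and 35.5 and 28.2 CPM in the rest (5.36 ± 0.32). The mitochondrial glutathione importer gene Slc25a39 was higher by 4.34 ± 0.31 and the iron-sulphur factor Glrx5 by 3.64 ± 0.31 on the log2 scale. The ferritin light chain gene Ftl1 had 6957 and 7526 CPM in members and 2594 and 2910 CPM in the rest (1.495 ± 0.22). The ferritin heavy chain gene Fth1 had 7325 and 6152 CPM in members and 5951 and 5033 CPM in the rest, and did not pass (0.39 ± 0.21, adjusted p = 0.752).

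Of 28 membrane and skeleton genes, 16 were higher, 1 lower and 11 not called, with a median log2 fold change of 3.60. Without the 5 members 24 of these could be tested, of which 8 were higher and 2 lower, against 13 higher of the same 24 with all members. The median of the 24 was 1.81 without the 5 and 3.12 with them. Slc4a1, the anion exchanger of the red-cell membrane, had 55 and 65 UMIs in members and 28 and 14 in the rest (7.77 ± 0.40, and 6.78 without the 5). Epb41, a protein of the membrane skeleton, had 208 and 127 UMIs in members and 218 and 196 in the rest, a log2 fold change of 5.91 ± 0.31. The Rh antigen gene Rhd had 41 and 39 UMIs in members and 24 and 2 in the rest (7.94 ± 0.44), and without the 5 its value of 4.69 did not pass (adjusted p = 0.0693). Tspo2, Tmcc2 and Mpp1 were higher by 7.59, 3.87 and 2.60. Cd47, a surface signal that limits uptake by macrophages, was higher by 1.41 ± 0.30 with all members and did not pass without the 5 (0.74, adjusted p = 0.395). Bsg, which encodes the surface glycoprotein basigin, did not pass with all members (-0.51 ± 0.24) and was lower without the 5 (-0.74, adjusted p = 0.0234). Slc2a1, a glucose transporter, was the lower gene, at -2.46.

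Of 30 late-maturation genes tested, 22 were higher and 0 lower, with a median log2 fold change of 3.15, and 21 of the 22 stayed higher without the 5 members. Bpgm, whose product makes the bisphosphoglycerate that tunes oxygen release, had 795 and 530 UMIs in members and 154 and 141 in the rest (8.40 ± 0.30). The ubiquitin ligase gene Mkrn1 had 645 and 479 UMIs in members and 487 and 449 in the rest (6.51 ± 0.28). The ubiquitin-conjugating enzyme gene Ube2l6 was higher by 6.61 ± 0.31, the exonuclease gene Isg20 by 7.44 ± 0.35 and the poly(A) polymerase gene Tent5c by 7.87 ± 0.33. Bnip3l, the receptor through which reticulocytes discard mitochondria, had 2238 and 3516 CPM in members and 168 and 187 CPM in the rest (4.08 ± 0.27). The autophagy gene Gabarapl2 was higher by 3.68 ± 0.27. Members were above the rest in both libraries for each of these genes.

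Of 23 genes of redox defence, gas exchange and glycolysis, 6 were higher and 0 lower, and the same count was found without the 5 members. The antioxidant enzyme genes Gpx1 (4500 and 5817 CPM in members, 299 and 287 CPM in the rest) and Prdx2 (2590 and 2733 CPM, against 213 and 225 CPM) were higher by 4.22 ± 0.26 and 3.70 ± 0.27. Car2, a carbonic anhydrase, had 1620 and 2285 CPM in members and 69.1 and 25.3 CPM in the rest (5.59 ± 0.31). Gclm, Cat and Blvrb were higher by 3.97, 2.58 and 2.29. Glycolytic genes were not among the calls: Gapdh had 407 and 591 CPM in members and 587 and 566 CPM in the rest (-0.14 ± 0.29). Gpx4 had 587 and 416 CPM in members and 505 and 477 CPM in the rest (0.14 ± 0.29).

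Of 17 transcription factors tested, 3 were higher and 0 lower. Klf1, the main erythroid Krüppel-like activator, had 6 and 6 UMIs in members and 20 and 1 in the rest (5.59 ± 1.35, adjusted p = 0.00210). Sox6 had 8 and 10 UMIs in members and 42 and 27 in the rest (4.31 ± 0.83), and Foxo3 12 and 10 UMIs in members and 215 and 196 in the rest (2.01 ± 0.52). Without the 5 members only Sox6 stayed higher in that list (adjusted p = 0.0100). Lmo2, Nfe2l2, Klf3, Zbtb7a and Klf13 had log2 fold changes between -0.21 and 1.03 and did not pass. Cytosolic ribosomal protein genes made up 11.2% and 10.7% of non-globin UMIs in members and 11.0% and 10.3% in the rest, and edgeR and DESeq2 called 0 of 81 in either direction (3 higher and 0 lower at an unadjusted edgeR p under 0.05).

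**Figure D4:**
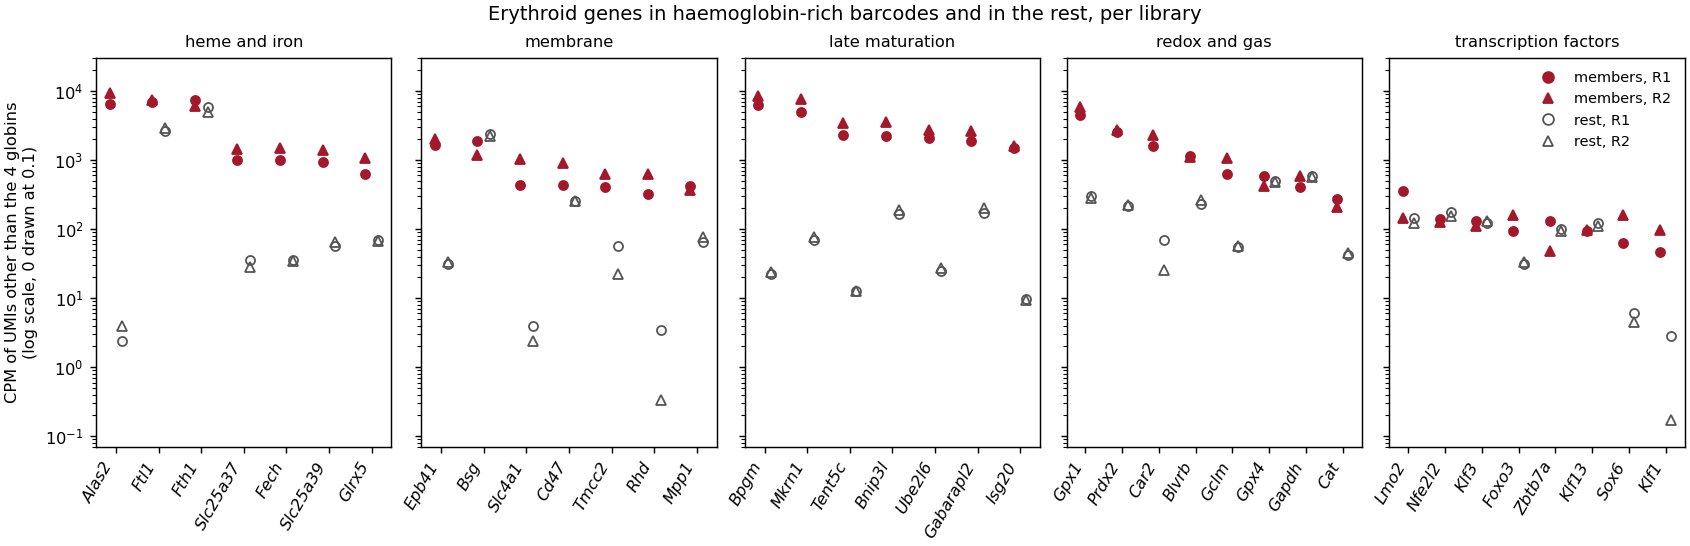
CPM of non-globin UMIs (vertical log axis, a level of 0 drawn at 0.1) of genes from the 8 with the most UMIs in members in each of 5 erythroid lists. Filled marks are members and open marks the rest, with circles for R1 and triangles for R2. Alas2 stands at 6581 and 9492 CPM in members and at 2.43 and 3.91 CPM in the rest, and Fth1, Bsg, Gpx4 and Gapdh lie close to the rest.

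Among all genes, those with the largest fold changes by the rule for named genes included further transcripts outside the lists. Slfn14, whose product is known from rabbit reticulocytes as a ribosome-associated endoribonuclease, had 16 and 9 UMIs in members and 0 in the rest of both libraries, at least 564-fold higher in members. Apol11b had 48 and 15 UMIs in members and 0 and 2 in the rest (10.77 ± 0.67). Trim10, an erythroid-enriched gene of the late-maturation list, had 53 and 40 UMIs in members and 7 and 3 in the rest (9.39 ± 0.47). Rec114, known for its role in meiotic DNA breaks, had 45 and 48 UMIs in members and 19 and 8 in the rest (8.03 ± 0.43). Fam220a, as the feature ENSMUSG00000118332 of a symbol that more than 1 feature carries, had 18 and 25 UMIs in members and 6 and 11 in the rest (7.63 ± 0.66), and its split from its namesake is uncertain.

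The named genes lower in members included many markers of other cells in the suspension. The neutrophil gene S100a8 had 31.3 and 15.98 CPM in members and 2547 and 1597 CPM in the rest, with a log2 fold change of -6.29 ± 0.42. That level came from few barcodes: 15 of 2914 in the rest of R1 and 13 of 2992 in R2 had 3 or more UMIs of the neutrophil list, and they held 17690 of 17797 and 9365 of 9406 S100a8 UMIs. The other rest barcodes had 15.6 and 7.04 CPM, and an S100a8 UMI was present in 4.05% and 2.17% of members, against 3.91% and 1.67% of the rest. The whole neutrophil list had only 8 UMIs in R1 members and 4 in R2 members, too few to rank members against these other barcodes. S100a9, the partner of S100a8, had 15.7 and 15.98 CPM in members and 2363 and 1425 CPM in the rest (-6.87 ± 0.46). Camp and Lcn2 had 0 UMIs in members and were at least 31.5-fold and 16.9-fold lower. Ngp fell by 6.29 and Retnlg by 4.18. Of 8 neutrophil markers tested 6 were lower (3 with DESeq2). The macrophage list had 8 of 14 lower (3 without the library block and 0 with DESeq2), with C1qa at -0.98 ± 0.26 and Cd163 at -2.78 ± 0.69, and the endothelial list 4 of 10 (1 and 0), with Cldn5 at -2.25 ± 0.34. Vwf, Slco2b1, Jchain, Igha and Pf4 were also lower, at -3.08, -2.66, -2.27, -2.80 and -1.26. Immunoglobulin gene Igha had 22 UMIs in R1 members and 0 in R2 members, and 3916 and 6921 in the rest. In the other direction, Slc1a2 of astrocytes and Mbp of myelin were higher by 0.90 ± 0.28 and 1.30 ± 0.34, with adjusted p of 0.0469 and 0.00921. Neither passed with DESeq2, without the library block or with members set at a haemoglobin share of 10% or more, and Slc1a2 did not pass without the filter on low counts or without shared barcode sequences. The B and plasma and the platelet lists had 1 lower marker each, Jchain and Pf4, and the astrocyte and oligodendrocyte lists 1 higher each. Of 10 fibroblast, 9 mural, 7 T and NK and 7 neuron markers tested, 0 were called in either direction by edgeR or DESeq2. At an unadjusted p under 0.05, edgeR gave 1 fibroblast, 1 mural and 2 T and NK markers higher, 1 fibroblast and 1 mural marker lower, and 0 neuron markers. Malat1 had 16043 and 24833 CPM in members and 31828 and 30855 CPM in the rest, and did not pass with all members (-0.55 ± 0.19, adjusted p = 0.120), but was lower without the 5 members (-0.61, adjusted p = 0.000564). Of 18 immediate-early genes 1 was higher and 4 lower, but 2 were higher and 0 lower when barcode sequences found in both libraries were left out.

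A small set of members stood out by transcripts of dividing cells. Mki67, a marker of proliferating cells, had 28 and 39 UMIs in members and 125 and 86 in the rest, and 62 of the members' 67 came from 4 members that held 4 or more, 2 in each library. This set was chosen after its values were seen and gets no test. In R1 its members had 1837 and 1742 genes and 53.3 and 52.5% haemoglobin, and in R2 853 and 798 genes and 70.9 and 69.7% haemoglobin. The 4 were uneven, with 90 and 13 UMIs of the dividing list in R1 and 97 and 96 in R2. The R1 member with 13 had 4 Mki67, 0 Top2a, 0 Ube2c and 1 Klf1 UMIs. It held 4197 of the 13350 non-globin UMIs of the 4, so pooled values below do not describe each member alike. These 4 held 7.01% of the members' non-globin UMIs but all 12 UMIs of Klf1, all 27 of the water channel gene Aqp1 and all 13 of Cdk1, which drives entry into mitosis. They held 99 of 122 UMIs of Hmgb2, 71 of 80 of Rhd, 46 of 61 of the nuclear protein gene Hemgn and 18 of 30 of the transferrin receptor gene Tfrc. Slc4a1 had 60 UMIs in the 4 and 60 in the other 116, which is 4494 CPM in the 4 and 339 CPM in the others. The late-maturation list was mixed: of 31 genes with a UMI in members, 17 had a higher CPM in the 4 than in the others and 14 a lower one. Bpgm was at 599 CPM in the 4 and 7440 CPM in the others, Bnip3l at 824 and 2796 CPM and Tent5c at 1273 and 2796 CPM, whereas Hemgn was at 3446 and 84.7 CPM and Ucp2, a mitochondrial carrier, at 3071 and 1401 CPM. Of 25 heme and iron genes with a UMI in members, 18 had a higher CPM in the 4 and 7 a lower one. Alas2 was among the lower ones, at 2547 CPM in the 4 and 7915 CPM in the others. Ribosomal protein genes gave 8.27% of non-globin UMIs in the set of R1 and 2.002% in that of R2, against 11.4% and 11.3% in the other members. In the other members, Mki67 numbered 4 UMIs in R1 and 1 in R2.

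The set of R2 may count 1 source more than 1 time. Its 2 barcodes differed at 13 bases but held nearly the same counts: over 79 genes the chi-square was 1.10 per degree of freedom, against a median of 31.2 over the 1035 pairs of R2 members, so they differed by about the sampling noise (p = 0.260). Of the 1035 pairs, 3 had a chi-square p over 0.05, and the other 2, at 0.505 and 1.08 per degree of freedom, were compared over 10 and 12 genes. Globin make-up, 29.2 and 29.5% alpha UMIs and 17.5 and 17.6% Hbb-bt among beta UMIs, was close too. Counted once, they leave 3 such sources.

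Ube2c, a ubiquitin-conjugating enzyme gene of mitotic exit, behaved differently from the rest of the dividing list. It had 110 and 94 UMIs in members and 77 and 52 in the rest (6.93 ± 0.35), and it was the gene of that list that stayed higher without the 5 members (5.44 ± 0.39, adjusted p = 3.12e-40). In R1, 1 member held 42 Ube2c UMIs and 0 of Mki67, Top2a, Hmgb2 and Klf1, with 567 genes and 88.4% haemoglobin. Mki67 did not pass without the 5 members (0.84 ± 1.04).

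**Figure D5:**
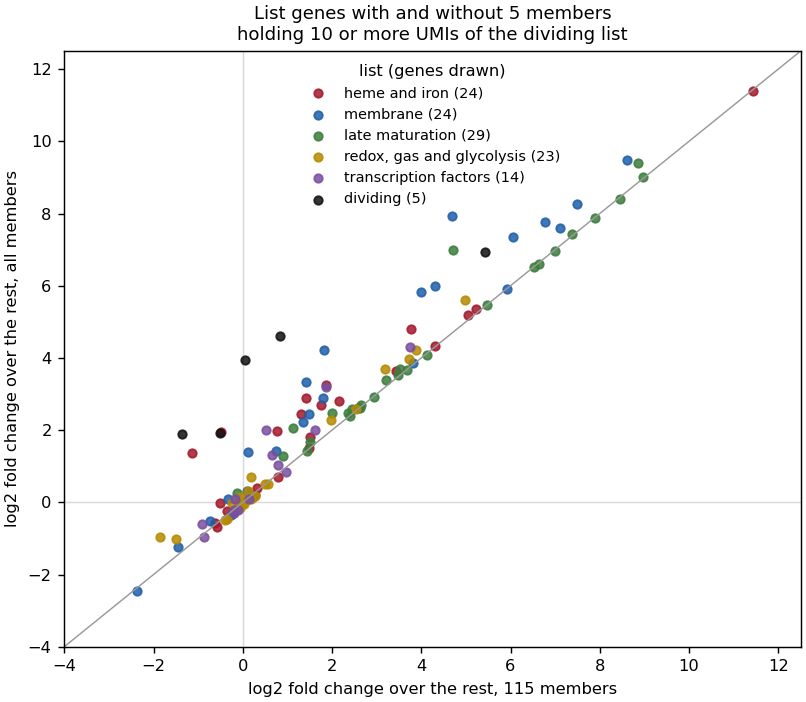
Log2 fold change over the rest of 119 genes of 6 lists, with all members (vertical axis) and without the 5 members that held 10 or more UMIs of the dividing list (horizontal axis, 115 members). The line marks equal values, and genes at -4 or below in either fit are not drawn. Late-maturation genes such as Bpgm (8.40 and 8.44) lie on the line, and Rhd (7.94 and 4.69), Mki67 (4.62 and 0.84) and Hmgb2 (1.92 and -0.52) lie above it.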

How the data were processed

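Leptomeningeal cells were captured with 10x Chromium in 2 libraries of 1 group, with at most 5000 cells targeted per the labels. The deposited matrices give raw counts of UMIs for each gene in each barcode. The authors used Cell Ranger 4.0.0, according to the file headers, with build mm10 per the submitters' processing notes. The deposited feature lists (gene symbol and Ensembl identifier) and barcode lists are other columns that name the rows and columns of the counts. The matrices hold 32287 features, and the lowest barcode has 500 UMIs. Aldoa, whose symbol more than 1 feature carries, and Ahsp, Hbb-bh0 and Hbb-bh3 were not analysed here.

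Members and the rest were summed per library, without the 4 globins. edgeR 4.0.16 (TMM, filterByExpr, quasi-likelihood, Benjamini-Hochberg, threshold 0.05) was run in R 4.3.3 with library as a block, because both sums of a library come from the same suspension, and left 1 residual degree of freedom. The printed SE is the fold change (log2) divided by the root of its F statistic. A second fit held members and 3 marker-defined sets (at least 3 UMIs of the list and at least 2 times those of each other list) and left 3. DESeq2 1.42.0 was an alternative, and the edgeR step was tested on simulated data. Shares have exact 95% intervals, a count of 0 allows 3 counts, and per-barcode comparisons used 500 UMIs. Other tools were python 3.11.15, numpy 2.4.6, scipy 1.17.1, pandas 2.3.3 and matplotlib 3.10.9. Gene models were GENCODE, and promoter windows RefSeq.

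The members, gene lists and tests were chosen with earlier results of these data known. Named genes were the globins, the 8 genes with the most UMIs in members per erythroid list, up to 3 per marker list, up to 15 higher (at least 20 UMIs over members) and up to 10 lower genes by fold change that passed with the same direction in both libraries, and Malat1. Lower genes also needed at least 20 CPM in members and the rest, or 100 CPM in the rest. Genes named for their part in an alternative, such as Aqp1 and Hemgn, were chosen after their values were seen. Some genes that the rule names are not reported here; counts over lists include them.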

Additional observations from a re-analysis of the deposited data

How the results depend on the processing

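The mean share of haemoglobin-rich barcodes was 1.995% as reported. It was 12.02% with no minimum of genes, 1.14% with at least 600 genes, 3.98% with at most 5% mitochondrial UMIs and 1.08% with no mitochondrial limit, and leaving out each library in turn gave 1.51 to 2.48%. The alpha share of globin UMIs (33.8%) was 34.8% with no minimum of genes and 33.3 to 34.3% with a library left out.

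The counts of 245 higher and 65 lower genes against the rest were 504 and 295 with no minimum of genes, an alternative chosen after seeing the data. Without the replicate block, by which both sums of a library are paired, they were 215 and 19, and 139 genes were lower than in the fibroblast set. The lower count was 182 at a haemoglobin share of 50%, 113 at 5% mitochondrial UMIs and 4 with DESeq2, where 2717 genes had no adjusted p. Without the 5 members of 10 or more dividing-list UMIs, Hmgb2 turned to -0.52. The cause of these shifts was not tested. Of 98 named genes 59 were called, and 22 of these missed the threshold in at least 1 of 14 settings, most often with DESeq2 (20 genes) and without the replicate block (11). With 1 residual degree of freedom and few UMIs per member, a gene that misses the threshold is not shown to be equal.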

Other observations

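Haemoglobin-rich barcodes under the gene limit outnumbered members, with 379 in R1 and 400 in R2. Their median haemoglobin share was 93.4% and 94.3%, over medians of 196 and 182 genes, and the other erythroid markers gave 9.09% and 10.002% of their non-globin UMIs, against 6.31% and 6.53% in members with 80% or more haemoglobin. Alas2 stood at 24695 CPM in R1 and 29329 CPM in R2 in these barcodes and Bpgm at 17915 and 19193 CPM, while Klf1 had 0 UMIs in both libraries and Tfrc 1 UMI in R1 and 0 in R2. With no minimum of genes in members or the rest, 19 of 81 cytosolic ribosomal protein genes were called higher by edgeR, against 0 for members of 400 genes or more. More genes of any kind were also called higher in that fit. The pooled share of ribosomal protein genes in non-globin UMIs was nonetheless lower under the gene limit, at 8.79% in R1 and 8.31% in R2, against 11.2% and 10.7% in members. Kept barcodes with 1 to 20% haemoglobin numbered 93 in R1 and 184 in R2, with medians of 690 and 672.5 UMIs. Their alpha share of globin UMIs was 43.8% and 41.6%, against 34.3% and 33.3% in members. Few barcodes carried these pooled values: the median was 8 globin UMIs per barcode, but 1 barcode held 2049 of the 5590 globin UMIs in R1 and 1 held 1093 of 4997 in R2. Without the 5 barcodes with the most globin UMIs, a choice made after seeing the data, the alpha share was 42.2% in R1 and 37.9% in R2. The ratio of Hbb-bs to Hbb-bt was 4.39 in R1 and 9.45 in R2 with all of them and 8.44 and 6.32 without the 5.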
